A study of Danio rerio with 2 samples.

Results

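The genes described here are 8 genes of the embryonic heart, namely the myosin heavy chain genes vmhc and myh6, the natriuretic peptide gene nppa, and the transcription factor genes nkx2.5, hand2, gata4, gata5 and gata6. Their probes were taken from a zebrafish oligo array by gene symbol, current or older, whatever the values. The genes themselves were chosen with earlier results of these data known. All 8 were found, read by 16 of 43553 probes, among 27225 genes and unnamed targets on the array. The data are 1 one-colour Agilent array of WT embryos and 1 of embryos of the line Tg(RE:HSE:EGFP), both labelled as 72 hpf (hours post-fertilization).

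The WT embryos were of the AB strain. The Tg(RE:HSE:EGFP) embryos had the AB background and were of the F2 generation of a line carrying the human RUNX1-Evi-1 fusion gene, which occurs in human leukemia. A heat shock promoter drove both the fusion gene and EGFP, so no heart-specific or blood-specific promoter restricted their expression. Both groups received the heat shock at 16 hpf, which lasted 1 hour at 38 °C. The labels and methods name embryos and total RNA and describe no separation of the heart or the blood, whereas the study's results ascribe the array genes to blood cells. Which material was hybridized is thus not settled by the text, and the values are read here as those of embryos. Heart genes such as myl7 (12.93 in WT) and all 13 skeletal muscle genes measured were above background on both arrays, as were erythrocyte globin genes. No selection of embryos by EGFP is described for the arrays. In RNA of several tissues, fewer cells of a type and less RNA per cell cannot be told apart. The methods speak of triplicate samples, yet 1 array per group was analysed here, and the sources used here do not give whether an array holds the mean of several. A single array per group leaves no replicate check and no test, and array, batch and group cannot be told apart. Every difference below is therefore a description of these 2 arrays.

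In the zebrafish heart, the ventricle contracts with the myosin of vmhc and the atrium with that of myh6. The early heart field is specified by gata4, gata5 and gata6, which bind GATA sites, together with the homeodomain factor nkx2.5 and the bHLH factor hand2. The working myocardium makes the natriuretic peptide of nppa, a hormone that acts on vessels and kidney. The GATA factors also act in the gut and liver, and hand2 acts in the pharyngeal arches, the fin buds and the sympathetic neurons, so that RNA of whole embryos would hold their transcripts from several organs.

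The files hold normalized log2 signals. Each gene is given by its brightest probe, the one with the highest mean over both arrays, and any others are given beside it. A probe counted as above background when it passed the 95th percentile of the receptor probes (178 for odorant, taste or trace amine receptors), which few cells of the embryo use. The limits were 6.75 (WT) and 6.81 (Tg). Of all genes and unnamed targets, 15911 were above the limit on at least 1 array. Across all probes, which are no replicates of each other, Pearson's r between the arrays was 0.980. Differences are the array labelled Tg minus the array labelled WT. This direction opposes the one that the study gives for hdac4, a histone deacetylase gene, so WT and Tg below are the labels of the arrays. The brightest hdac4 probe read 11.37 (WT) and 11.03 (Tg). The other hdac4 probe read 7.88 and 6.70, the latter not above background.

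All 8 heart genes were above background on both arrays, and none differed by 2-fold. In 5 genes (myh6, gata4, vmhc, hand2 and gata5) the signal was lower in Tg than in WT, and in 3 (nppa, gata6 and nkx2.5) it was higher. Their differences ran from -0.41 (myh6) to 0.36 (nppa) on the log2 scale, with a median of -0.25. Among all 15911 genes, 8.27% differed by at least 2-fold in either direction, 52.4% were below 0, and the median was -0.03. The middle of that distribution, from the 25th to the 75th percentile, ran from -0.37 to 0.33. Of the 8 genes, myh6 and gata4 lay below this range and nppa lay above it, while the other 5 lay within it. No heart gene was counted at 1.5-fold, which 25% of all genes reached, or at 4-fold, which 0.918% reached. For counting, a signal below the limit on 1 array is set to the lowest signal above that limit. In WT, vmhc, gata4 and nkx2.5 lay only 0.82, 0.80 and 0.29 log2 units above the limit. These genes could thus not be counted as 2-fold lower whatever the Tg signal, nor nkx2.5 as 1.5-fold lower. With a stricter limit, at the 99th percentile, vmhc, myh6, nkx2.5 and gata4 passed it in neither WT nor Tg, and nppa passed it in Tg only. The median of the 4 genes then measured was 0.006.

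**Figure D1:**
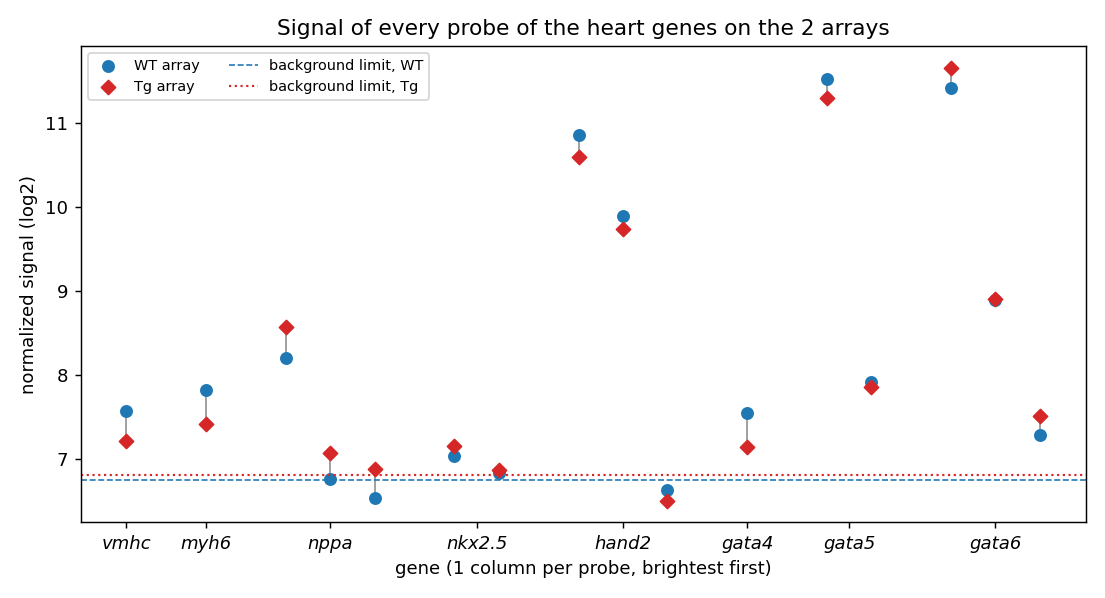
Normalized log2 signal (vertical axis) of each of the 16 probes of the 8 heart genes (horizontal axis, brightest probe first) in WT (blue circles) and in Tg (red diamonds), with the background limit of each array as a horizontal line. The probes of a gene lie on one side, with the Tg point above the WT point for all probes of nppa, nkx2.5 and gata6 and below it for all probes of the other 5 genes.

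The gene vmhc, listed today as myh7, encodes the heavy chain of ventricular myosin. Its 1 probe, at chromosome 2, 22103491 to 22103550, on the minus strand, read 7.57 (WT) and 7.21 (Tg). The signal was thus 1.28-fold lower in Tg, a difference of -0.36. Of all genes, 49.8% differed by at least as much in either direction. Positions here are those of the files, whose unplaced sequences carry the name Zv8, with no other statement of the build and no annotation of exons used here.

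The atrial myosin heavy chain gene myh6 was also read by 1 probe, at chromosome 20, 49187278 to 49187337, on the minus strand. It read 7.82 (WT) and 7.42 (Tg). This difference of -0.41 (1.33-fold lower) was the farthest from 0 among the 8 genes, and 44.0% of all genes differed by as much or more. The signals of the vmhc and myh6 probes were therefore both lower in Tg, by similar amounts. Each gene had 1 probe, with no other probe to set beside it. Both were near the background limit: vmhc, which was 0.82 (WT) and 0.40 (Tg) log2 units above it, and myh6, which was 1.08 (WT) and 0.61 (Tg) above it.

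The related gene vmhcl, listed today as myh7l, encodes another ventricular myosin heavy chain and lies near vmhc on chromosome 2. Its brightest probe, at 22119824 to 22119976, read 7.95 (WT) and 9.47 (Tg), 2.87-fold higher. This is opposite in sign to vmhc. The other 4 vmhcl probes gave differences of 0.17 to 0.88, but none of them passed the WT limit and 1 passed the Tg limit. The vmhc probe and the brightest vmhcl probe are the 2 probes for which the files list one and the same vmhc cDNA, so which of the genes each of them reads was not tested.

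Of the 6 other heart-restricted sarcomere genes, 1 (vmhcl) was at least 2-fold higher in Tg and none was lower, with 4.75% of all genes higher and 3.52% lower. Their median difference was 0.48, against -0.25 for the 8 genes. The troponin I gene tnni1b read 9.41 and 10.27 (0.86, 1 probe), with WT before Tg. In the same order, the troponin C gene tnnc1a read 10.67 and 11.22 (0.55, with its other probe at 0.15). The myosin-binding protein C gene mybpc3 read 11.07 and 11.49 (0.41). The 8 mybpc3 probes ran from -0.30 to 0.59. Only 3 of them were above 0, so most did not share the sign of the brightest one. A further 2 probes list a tnnc1a accession but were designed on another transcript. They were left out, and with them tnnc1a differed by -0.21. The defining myocardial genes myl7, a myosin light chain (-0.17), and tnnt2a, troponin T (-0.05), were nearly level, at 12.93 and 10.96 in WT, with probes of both signs in each. With the mean over probes in place of the brightest one, no gene of the list reached 2-fold. The median of the list was then 0.23, against -0.16 for the 8 genes.

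Sarcomere genes that the heart shares with body muscle were mixed. Of 8 measured, with a median of -0.18, 1 was at least 2-fold higher, ldb3a, a Z-disc gene, by 1.12. Its other 2 probes differed by 1.07 and 1.03, but the files give them identical positions, so they may not be separate readings. The related ldb3b was higher by 0.66, and the Z-disc gene tcap and the myosin methyltransferase gene smyd1b were lower, with differences of -0.39 and -0.38, the other smyd1b probe at 0.21. Genes of skeletal muscle are given beside these results. Of 13 measured, all above background on both arrays, 5 were at least 2-fold higher in Tg, with a range from -0.73 to 2.07, a median of 0.89, and myhz2 (2.07), tnnt3b (1.64), pvalb1 (1.56) and tnni2a.4 (1.49) farthest. Their part in the vmhcl and ldb3a values was not tested.

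The gene nppa encodes the precursor of atrial natriuretic peptide. Its brightest probe, at chromosome 8, 49764435 to 49764494, read 8.20 (WT) and 8.56 (Tg). The difference of 0.36 (1.29-fold higher) was the highest of the 8 genes. A second nppa probe read 6.76 and 7.06 (0.31), just above background on both arrays. The last read 6.53 and 6.88 (0.35), and was above background in Tg only. All 3 probes thus differed by nearly the same amount, but the dimmer pair share 52 bases of the gene and are not separate readings. Of all genes, 49.4% differed by as much as nppa or more.

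A probe without a gene symbol, described in the files as B-type natriuretic peptide mRNA, lies near nppa on chromosome 8, at 49758033 to 49758092. It was singled out after its value was seen. It read 7.86 (WT) and 8.38 (Tg), a difference of 0.52 in the direction of nppa. Among the other genes of natriuretic peptides, of the proteases that cut them and of their receptors, 3 of 7 on the array were measured and none reached 2-fold, with a median of -0.25. The clearance receptor gene npr3 was higher (7.52 and 8.22, a difference of 0.70, 1 probe), and the protease genes furina (-0.51) and furinb (-0.25, with the other probe at 0.08) were lower. The peptide genes nppal, nppc and nppcl and the receptor gene npr1a were not above background on either array.

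The homeodomain factor gene nkx2.5 was read by 2 probes at chromosome 14, 25605921 to 25605980 and 25605998 to 25606057. The brighter read 7.03 (WT) and 7.15 (Tg), a difference of 0.12. The other read 6.82 and 6.87 (0.04). Both differences were small, and both probes lay close to the background limit, the brighter by 0.29 log2 units in WT. Of all genes, 82.1% differed by at least as much.

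The gene hand2, whose bHLH protein is needed for the myocardium to form, was well above background. Its brightest probe, at chromosome 1, 38173385 to 38173444, read 10.86 (WT) and 10.60 (Tg), a difference of -0.26 (1.2-fold lower). A second probe read 9.90 and 9.73 (-0.17). The last read 6.63 and 6.50 (-0.13), not above background on either array. All 3 probes were lower in Tg, and none overlaps another in position.

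The gene gata4 had 1 probe, whose positions on chromosome 20, 49041401 to 49041791, span 391 bases. It read 7.54 (WT) and 7.14 (Tg), a difference of -0.40 (1.32-fold lower). This was next to myh6 in size, and 45.1% of all genes differed by as much or more. The gata4 and myh6 probes lie 145486 bases apart on the minus strand of the same chromosome. In Tg, gata4 was 0.33 log2 units above background.

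The gata5 probe with the highest signal, at chromosome 23, 5929374 to 5929433, read 11.53 (WT) and 11.29 (Tg), a difference of -0.23. Its other probe read 7.91 and 7.86 (-0.05), a difference closer to 0. For gata6, the brightest probe, at Zv8_scaffold3086, 115553 to 115612, read 11.41 and 11.66 (0.25). Its other probes read 8.89 and 8.91 (0.01) and 7.28 and 7.51 (0.23). The probes of gata5 and of gata6 kept to one sign within each gene, on opposite sides of 0, with a dimmer probe near 0 in each.

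Within all 5 heart genes with more than 1 probe (nppa, nkx2.5, hand2, gata5 and gata6), the probes above background on both arrays shared one sign. Among all 5607 genes with at least 2 such probes, 72.6% did. The SD of the difference between probes of a gene had a median of 0.16 over these genes. On the brightest probe, nkx2.5 differed by less than this and the other 7 genes by more. With the mean over probes, gata5 (-0.14) differed by less too, while gata6 (0.162) and hand2 (-0.18) still differed by slightly more. The genes vmhc, myh6 and gata4 have 1 probe each and so no such spread of their own. This SD is the spread between probes of the same 2 arrays and not between embryos.

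**Figure D2:**
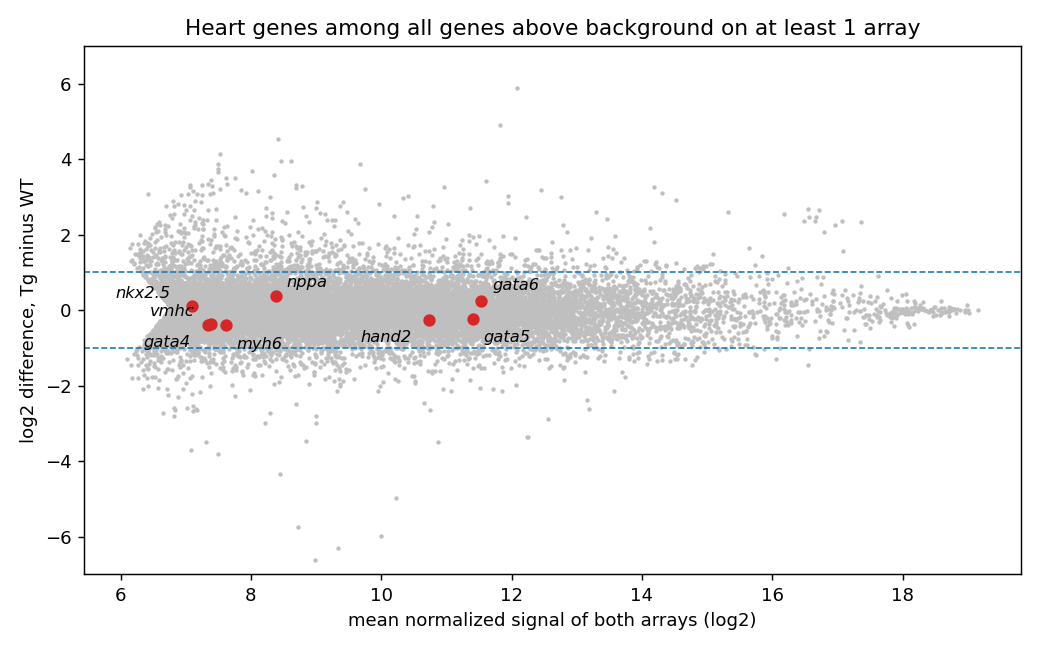
Log2 difference, Tg minus WT (vertical axis), against the mean log2 signal of both arrays (horizontal axis) for the 15911 genes above background on at least 1 array (grey) and the 8 heart genes (red), with dashed lines at 2-fold. The heart genes lie inside the grey band between the lines, from -0.41 to 0.36, with vmhc, myh6, nppa, nkx2.5 and gata4 among the dim genes and hand2, gata5 and gata6 among the brighter ones.

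The partners of these regulators were mixed too. Of 17 other cardiac transcription factors and cofactors measured, 2 were at least 2-fold lower in Tg and none was higher, with a median of -0.25, close to that of the 8 genes. It was -0.019 with the mean over probes, -0.0805 at the stricter limit, and -0.14 with tbx5a, which passed the WT limit only, taken at its bound of 0. The 2 were the T-box repressor genes tbx2b (12.62 and 11.51, -1.11) and tbx2a (12.28 and 11.28, -1.003), which act where the chambers meet, in the eye and in other organs. All 3 probes of each were lower in Tg, by -0.95 to -1.21 for tbx2b and by -0.47 to -1.003 for tbx2a. The tbx2b probe at -0.95 read 7.58 (WT) and 6.63 (Tg), the latter not above background. Next were the MADS-box factor genes mef2ca (-0.75) and mef2aa (-0.63), and 1 of the 4 mef2ca probes had the opposite sign. The paralog nkx2.7, with 1 probe, differed by -0.37, where nkx2.5 differed by 0.12.

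Among other genes with a GATA-type zinc finger, which are not all GATA factors, 1 of 6 measured reached 2-fold, with a median of -0.10. It was gatad2ab, which encodes a subunit of a chromatin-remodelling complex (13.63 and 12.61, -1.03). The red cell factor gene gata1a was lower by a difference of -0.95 on its brightest probe (10.14 and 9.20) and of -0.29 on the other. The other GATA zinc finger genes gatad2b (0.82) and gata2a (0.27) were higher, and the 2 gatad2b probes disagreed in sign. The median of this list was -0.34 at the stricter limit and -0.005 with no filter on dim probes. Of the 10 erythrocyte genes, 9 were lower in Tg, 1 of them at least 2-fold (epb41b, -1.54), with a median of -0.48, or -0.38 with 1 gene at its bound. The next were slc4a1a (-0.72, with the other probe at 0.04), cahz (-0.54) and alas2 (-0.53), and 3 of the 9 were within 0.1 of 0. These 3, the globin genes hbae1.1, hbbe1.1 and hbbe3, read 18.78 to 19.00, near the highest signal of either array (19.16). Each had probes of both signs. Over all genes, 52.4% were below 0 and 3.52% were at least 2-fold lower. The 3 cardiac GATA genes stayed closer to 0 than gata1a on its brightest probe. Set against the other gata1a probe (-0.29), gata4 (-0.40) lay farther from 0.

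Genes listed for other parts of the heart gave no shared direction. How much of their signal came from the heart and how much from other organs was not tested. Of 6 calcium handling and conduction genes none reached 2-fold and the median was 0.10. The pacemaker channel gene hcn4 was at 0.87, on 1 probe near the background limit (7.39 in WT). The connexin gene gja5b was at -0.52, and the calcium store genes casq2 and atp2a2a were at 0.22 and 0.17. Of 6 endocardium and valve genes none reached 2-fold either, and the median was -0.20. The flow-responsive genes klf2a (0.76, other probe 0.22) and klf2b (-0.50, other probe -0.09) lay on opposite sides of 0. Beside them were bmp4 (-0.42, its 3 probes running from -0.48 to 0.63) and notch1b (-0.35). Of the epicardium genes, wt1b (0.91, with the other probe at 0.11), tcf21 (0.44, 1 probe, 7.21 in WT) and aldh1a2 (-0.41, with the other probe at 0.05) were measured. Their median was 0.44, and none reached 2-fold. That median was 0.026 with no filter on dim probes and 0.25 at the stricter limit.

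Since gata4, gata5, gata6 and hand2 serve other organs, genes of those organs are given beside them. The 10 endoderm organ genes measured had a median of -0.03, with the pancreas factor pdx1 2.24-fold lower, the brightest probes of the intestinal gene fabp2 (-0.68) and the plasma protein gene tfa (-0.58) lower as well, and the liver gene fabp10a, which did not pass the WT limit, at least 1.62-fold higher in Tg. The probes of fabp2 ran from -0.68 to 0.40 and those of tfa from -0.64 to 0.36, so the sign differed between them. A bound of this kind sets the signal against the lowest signal above background on the other array, or the probe's own signal there where that is higher. Of 10 pharyngeal arch and fin bud genes, where hand2 acts, 7 were lower in Tg, 2 of them at least 2-fold, with a median of -0.48. These were the endothelin receptor gene ednrab (2.99-fold) and tbx4, known from the pelvic fin (2.07-fold), followed by dlx2a (-0.86) and dlx5a (-0.78). Whether the tbx4 signal came from a fin bud where hand2 acts was not tested. Of 3 sympathetic neuron genes, phox2bb was 2.03-fold higher, phox2a differed by 0.78 (other probe 0.22) and ascl1a by -0.60. The genes th and dbh, which make the transmitter, were not above background. With the mean over probes, pdx1, ednrab, tbx4 and phox2bb did not reach 2-fold, nor did gatad2ab. How much of the hand2 and GATA signals came from these organs was not tested.

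**Figure D3:**
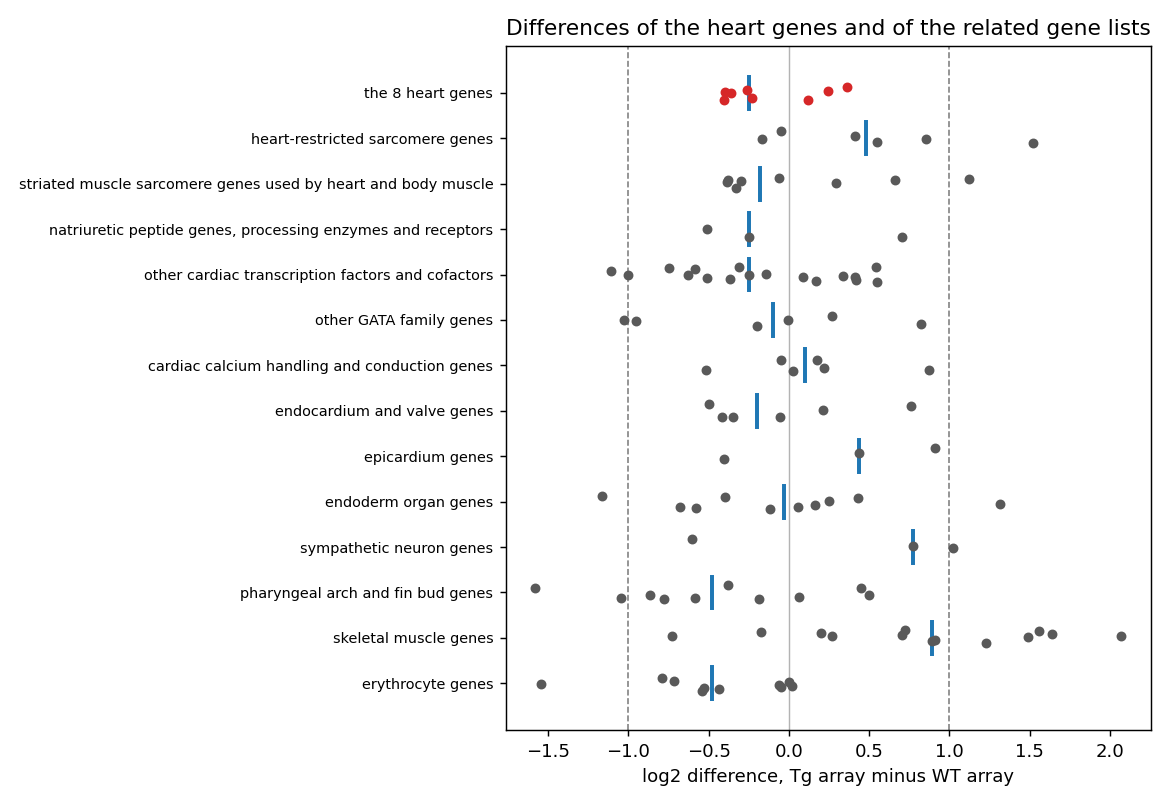
Log2 difference, Tg minus WT (horizontal axis), of each measured gene of the 8 heart genes (red) and of 13 related gene lists (grey, 1 row each), with the median of each row as a blue bar and dashed lines at 2-fold. The heart genes stay between -0.41 and 0.36, while the skeletal muscle genes have the highest median (0.89) and the erythrocyte and the pharyngeal arch and fin bud genes the lowest (-0.48). Genes above background on 1 array only are drawn at their difference and not at their bound. The endoderm organ gene fabp10a (1.315) thus lies past a dashed line without being counted at 2-fold.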

How the data were processed

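The series gives 1 sample per group, and whether it stands for several arrays is not stated. Total RNA was labelled with Cy3 and hybridized to Agilent zebrafish oligo arrays. Images were read with Agilent Feature Extraction (version not stated in the labels or methods). The log2 values were deposited by the authors as normalized signals, 1 per probe and array, with no control spots or flags. How they were normalized is not stated there. The series table held equal values at all 43553 probes.

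Differences were taken after subtracting the 75th percentile of each array, a shift of -0.001. Printed levels are as deposited. Probes were named by the RefSeq accession they were designed on (24707), by a current symbol (2970) or an older one (1665), else by the symbol in the files (5137) or another listed accession (915), and 8159 stayed unnamed. The reference table (GRCz12tu) was used for names only. The naming order and the set of receptor probes behind the background limit each had earlier versions and were settled after values had been seen. The 8 genes and the 13 lists were chosen with earlier results of these data known. The genes named from a list are up to 4 with the largest absolute differences (bounds where 1 array was below background), and any other gene named was chosen after its value was seen. List genes with no probe matched by name were not analysed. A gene counted at 2-fold. No p-value could be computed from 1 array per group, and the number of arrays limits the precision. The steps were tested on simulated data, with changes larger than those of the heart genes put only into genes well above background. That test does not cover the dim heart genes or differences as small as theirs. Python 3.11.15, numpy 2.4.6, pandas 2.3.3 and matplotlib 3.10.9 were used. Protein and promoter sequences were not analysed here.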

Additional observations from a re-analysis of the deposited data

How the results depend on the processing

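No paired analysis was possible because each group had 1 array, and no replicate could be left out for the same reason. All 8 heart genes kept their sign where measured, and none reached 2-fold, but the alternatives could hardly change this. Each had 1 probe (myh6 -0.41 to -0.40, vmhc -0.36 to -0.35, gata4 -0.40 to -0.39) or probes of one sign. The latter were nppa (0.34 to 0.37), hand2 (-0.26 to -0.18), gata5 (-0.23 to -0.14), gata6 (0.16 to 0.25) and nkx2.5 (0.08 to 0.12). Wherever a background limit was used, vmhc, gata4 and nkx2.5 were also too dim in WT to be counted as 2-fold lower. The background limit decided how many were measured. With the limit at the receptor probes' 99th percentile (8.26 for WT, 7.86 for Tg), 4 of the 8 were measured, 3 of them on both arrays, and their median became 0.006. At that limit the median of the other cardiac factors was -0.0805 and 475 of all genes were higher.

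With the mean over probes, the heart-restricted sarcomere genes had 0 at least 2-fold higher and a median of 0.23, and the other cardiac factors 1 lower and a median of -0.019. With the symbols of the files, under which vmhcl was not matched to the list, the sarcomere genes had 0 higher and a median of 0.18. With each array's median subtracted, 1 other cardiac factor was lower, since tbx2a lies at the threshold. At 1.5-fold, 2 sarcomere genes were higher, 4 cardiac factors lower, 9 skeletal muscle genes higher and 1 lower, and 1981 of all genes higher and 1992 lower. At 4-fold these were 0, 0, 1 and 0, and 108 and 38.

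Added after seeing the data were 2 naming rules and 1 set of receptor probes, all tried before the ones used. Where any listed accession went before the symbol, 2 probes designed on another transcript were added to tnnc1a, which then differed by -0.21 in place of 0.55, and the sarcomere median was 0.18. A set of 224 receptor probes, which also held origin recognition genes, gave limits of 6.81 and 7.001. With it the median of the other cardiac factors was -0.20, and 738 of all genes were higher and 542 lower. With that set and with the other naming rule, no list median shifted by more than 0.16, the median SD between probes of a gene, and no count by more than 1.5 times. Over all alternatives, the medians of the calcium handling and conduction genes (-0.04 to 0.22), the endocardium and valve genes (-0.20 to 0.06) and the endoderm organ genes (-0.12 to 0.11) took both signs, and those of the natriuretic (-0.25 to -0.08), other GATA (-0.34 to -0.005), shared sarcomere (-0.30 to -0.0096), epicardium (0.026 to 0.44) and sympathetic neuron genes (0.05 to 0.78) kept one. The cause of the other shifts was not tested.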
